A study of Mus musculus with 8 samples.

Results

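The transcription factors that set and keep the adipocyte state were examined in white fat from the epididymal depot. The set held 10 of the 34866 genes in the deposited table and was chosen by gene symbol: Pparg, Cebpa, Cebpb, Cebpd, Klf15, Ebf1, Ebf2, Rxra, Zfp423 and Nr1h4. The choice applied no filter on measured values, but it was made with earlier results of these data known. All 10 were present in the table, and 9 passed the low-count filter. Nr1h4 did not.

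RNA was taken from male mice of 2 genotypes, 4 libraries each, with ages not given in the sources used here. Control mice were Aromatase flox/flox, with loxP sites in each allele of Cyp19a1, which encodes aromatase. Knockout mice were aP2-Cre;Aromatase flox/flox, so the floxed alleles were common to both groups and the Cre transgene was the labelled difference. The aP2 promoter is that of Fabp4, which is active in adipocytes and also in some macrophages. No group carrying the transgene alone was analysed here, so an effect of aP2-Cre itself and one of the deletion cannot be told apart. The enzyme converts androgens into oestrogens. The study asked which genes depend on adipose Cyp19a1 and act in phosphorus metabolism. Here the same libraries were read for the regulators of adipocyte identity.

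Fat cell formation runs through a cascade of transcription factors. C/EBPβ and C/EBPδ, encoded by Cebpb and Cebpd, act early and switch on PPARγ and C/EBPα, which then maintain each other and the genes of lipid storage. PPARγ is a nuclear receptor that binds DNA together with a retinoid X receptor such as RXRα, the product of Rxra. KLF15, EBF1, EBF2 and ZFP423 act beside this core, in commitment of precursors and in the character of the mature cell.

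No factor changed past the threshold between the genotypes. Of the 9 tested, 0 had a Benjamini-Hochberg adjusted p under 0.05 by the edgeR quasi-likelihood method over all 12480 tested genes, where 21 genes, or 0.168%, passed. DESeq2 and limma-voom with quality weights for the libraries also called 0 of them. Klf15 was the factor with the largest difference, at 0.73 times the control level, and the only one of the 9 whose libraries did not overlap between genotypes. It was also the 1 factor with an unadjusted edgeR p under 0.05, against 6.39% of all tested genes, and non-overlapping libraries were seen in 4.21% of tested genes. The mean of Pparg was 0.85 times and that of Cebpa 0.84 times the control mean in the fit, with intervals that included no change. The other 6 tested factors lay between 0.90 and 1.09 times.

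The libraries held 1538427 to 3053565 estimated counts, and control replicate 4 was the smallest. Cyp19a1 had 0 to 5 estimated counts per library, 1.00 ± 0.837 CPM (counts scaled to a common library size with TMM, the trimmed mean of M values) for controls and 0.761 ± 0.663 CPM for knockouts (SD, n = 4, two-sided exact permutation p = 0.686), so the deletion could not be checked at this depth. The smallest p that 4 against 4 libraries can give in this exact test is 0.0286. The tissue label fitted its markers: Adipoq, which encodes adiponectin, lay at 2110 to 3814 CPM and the lipid droplet gene Plin1 at 644.3 to 1004 CPM in the 8 libraries. The number of genes that passed over the whole table, 21 with all libraries, was 4 without control replicate 2 and 43 without control replicate 4, and it was 12 without control replicate 1, 10 without control replicate 3, and 9, 13 and 13 without knockout replicates 1, 2 and 4.

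PPARγ is transcribed from several start sites, and the reads, primed from the poly(A) tail, count their products together. The RefSeq promoter table for GRCm38.p6 matched 8 of the 10 factors with 13 start sites, and had no entry for Cebpd and Ebf2. The 250 bases before the start are shown for Klf15, the factor with the largest difference, for Cebpa, and for starts 1 and 3 of the 3 listed for Pparg. The capitals mark a TATA box, TATAAA on either strand.
Klf15, chr6:90462326-90462575, plus strand: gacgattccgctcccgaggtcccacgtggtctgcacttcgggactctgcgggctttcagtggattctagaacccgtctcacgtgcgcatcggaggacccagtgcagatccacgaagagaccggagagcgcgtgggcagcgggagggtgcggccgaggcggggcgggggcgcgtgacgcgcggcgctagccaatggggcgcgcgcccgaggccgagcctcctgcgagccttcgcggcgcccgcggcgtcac
Cebpa, chr7:35119043-35119292, plus strand: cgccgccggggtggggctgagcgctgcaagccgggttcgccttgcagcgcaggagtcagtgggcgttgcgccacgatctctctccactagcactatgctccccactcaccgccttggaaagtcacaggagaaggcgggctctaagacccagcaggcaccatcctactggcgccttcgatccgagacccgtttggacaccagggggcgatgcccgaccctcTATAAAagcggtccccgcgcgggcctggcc
Pparg start 1, chr6:115360894-115361143, plus strand: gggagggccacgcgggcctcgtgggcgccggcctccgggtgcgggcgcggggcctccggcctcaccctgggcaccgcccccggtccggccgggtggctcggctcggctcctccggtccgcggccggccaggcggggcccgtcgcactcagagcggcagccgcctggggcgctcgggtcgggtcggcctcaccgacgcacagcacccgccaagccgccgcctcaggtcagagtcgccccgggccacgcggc
Pparg start 3, chr6:115421816-115422065, plus strand: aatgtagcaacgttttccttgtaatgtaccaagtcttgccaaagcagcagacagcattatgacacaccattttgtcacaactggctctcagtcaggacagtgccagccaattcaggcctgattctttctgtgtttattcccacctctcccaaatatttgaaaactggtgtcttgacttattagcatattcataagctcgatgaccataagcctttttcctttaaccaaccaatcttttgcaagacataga
The window of Pparg start 1 was 82.4% G and C and that of start 3 was 40.8%, so the starts whose counts are merged lie in unlike sequence. The Klf15 and Cebpa windows were 72.0% and 66.4% G and C. Cebpa had TATAAA 30 bases before its start, and the window of Pparg start 2 held the same motif on the minus strand. In all, 2 of the 13 windows held TATAAA or its reverse complement TTTATA, against 12.4% of all 32851 promoter windows of that length. The EBF core CCCNNGGGA, searched on both strands, was in 1 of the 13, the Cebpb window, against 5.6% of all. The palindrome TTGCGCAA, a C/EBP site, and the canonical PPAR-RXR direct repeat were each in 0 of the 13 on either strand, against 0.164% and 0.0335% of all windows. No window held more than 1 of the motifs.

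Pparg (chromosome 6, 115360951 to 115490399) encodes PPARγ, the receptor on which adipocyte differentiation depends. Replicates 1 to 4 measured 247.7, 249.8, 203.6 and 201.3 CPM among controls and 190.5, 193.2, 182.7 and 202.3 CPM among knockouts. Control replicates 1 and 2 stood above all other libraries, while control replicates 3 and 4 lay beside the knockout libraries, and the groups overlapped by 1 library at the edge. The means were 225.6 ± 26.8 and 192.2 ± 8.11 CPM (SD, n = 4), and the fitted log2 change was -0.23 (95% interval -0.47 to 0.01, edgeR adjusted p = 0.802). A fold below 0.72 or above 1.01 lay outside that interval. Without control replicate 4 the unadjusted edgeR p was under 0.05 while the adjusted p was 0.577.

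Rxra (chromosome 2, 27676440 to 27762957) encodes the partner with which PPARγ binds DNA. It measured 126.5, 117.2, 129.6 and 96.16 CPM among controls and 100.7, 98.84, 104.3 and 120.0 CPM among knockouts. Control replicate 4 was the lowest of all 8 and knockout replicate 4 lay among the controls, so the groups overlapped. The log2 fold change was -0.15 (95% interval -0.41 to 0.11, edgeR adjusted p = 0.922). For both genes of the receptor pair the 95% interval included no change.

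Cebpa (chromosome 7, 35119293 to 35121928) encodes C/EBPα, which keeps Pparg on in the mature cell. Replicates 1 to 4 measured 425.9, 423.0, 442.2 and 351.9 CPM among controls and 426.3, 296.1, 301.8 and 349.3 CPM among knockouts. Knockout replicate 1 was as high as the controls, and the other 3 knockout libraries were below every control library. The means were 410.8 ± 40.1 and 343.4 ± 60.2 CPM (SD, n = 4), with a fitted log2 change of -0.26 (95% interval -0.55 to 0.03, edgeR adjusted p = 0.816). Leaving out knockout replicate 1 gave a log2 fold change of -0.38, with an unadjusted edgeR p under 0.05 and an adjusted p of 0.668.

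Cebpb (chromosome 2, 167688915 to 167690418) and Cebpd (chromosome 16, 15887286 to 15891031) encode the early C/EBP factors. Cebpb measured 88.04, 100.8, 101.4 and 113.5 CPM among controls and 98.45, 84.32, 73.31 and 125.9 CPM among knockouts. Both the lowest and the highest library for Cebpb were knockouts, replicates 3 and 4, and the control libraries lay between them. Its log2 fold change was -0.07 (95% interval -0.41 to 0.26, edgeR adjusted p = 0.976), and without knockout replicate 3 it was 0.03. Cebpd measured 59.4, 63.6, 39.47 and 49.36 CPM among controls and 63.65, 43.57, 55.47 and 55.75 CPM among knockouts. For Cebpd the lowest library was control replicate 3 and the highest knockout replicate 1, with the other 6 mixed between them, at a log2 fold change of 0.04 (95% interval -0.32 to 0.39, edgeR adjusted p = 0.987), which was -0.08 without control replicate 3 and -0.04 without knockout replicate 1. Cebpb overlaps Tmem189 on the opposite strand, which had 1319 estimated counts in all libraries against 1893 for Cebpb. Whether the counting used strand is not given in the sources used here, so reads of the pair could be divided wrongly, which was not tested. All 8 deposited values of Cebpb were exactly whole. Cebpd overlaps Spidr on the opposite strand, which had 44.7 estimated counts in all libraries against 1047.5 for Cebpd. Of the 8 deposited values of Cebpd, 2 were exactly whole.

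Klf15 (chromosome 6, 90462576 to 90475238) encodes a Krüppel-like zinc finger protein that glucocorticoids induce and that promotes adipogenesis and the glucose transporter gene Slc2a4. Replicates 1 to 4 measured 46.12, 57.74, 53.37 and 57.7 CPM among controls and 41.21, 39.94, 34.13 and 40.34 CPM among knockouts. Every knockout library was below every control library, with a gap between knockout replicate 1 and control replicate 1. Lower, non-overlapping libraries were seen in 1.74% of all tested genes. The means were 53.7 ± 5.47 and 38.9 ± 3.23 CPM (SD, n = 4; two-sided exact permutation p = 0.0286, the smallest possible), from 88 to 138 counts a library. The log2 fold change was -0.46 with a standard error of 0.136 and a 95% interval of -0.75 to -0.17 (edgeR adjusted p = 0.438), so the difference did not pass after adjustment over all genes. Its size lay between -0.53 and -0.40 in the 8 fits that left out 1 library, with edgeR adjusted p-values of 0.372 to 0.851. In the sense direction Klf15 shared no word of 31 bases with another gene of the annotation, and its longest run of A was 11 bases.

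Slc2a4, chosen here after its value was seen because KLF15 acts on it, encodes the insulin-responsive glucose transporter. It was at 107.6 ± 26.9 CPM for controls and 92.9 ± 17.3 CPM for knockouts (SD, n = 4), and the groups overlapped (fitted log2 change -0.22, edgeR adjusted p = 0.922).

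Ebf1 (chromosome 11, 44617317 to 45008091) and Ebf2 (chromosome 14, 67233292 to 67430918) encode early B-cell factors, which favour adipocyte differentiation, EBF2 also as a marker of thermogenic precursors. Ebf1 measured 360.6, 320.1, 350.3 and 278.2 CPM among controls and 438.7, 327.6, 355.7 and 310.9 CPM among knockouts. Knockout replicate 1 was the highest and control replicate 4 the lowest, with the other 6 libraries mixed. The log2 fold change of Ebf1 was 0.13 (95% interval -0.15 to 0.41, edgeR adjusted p = 0.939), and it was 0.06 without control replicate 4 and 0.02 without knockout replicate 1. Ebf2 measured 64.64, 50.63, 58.31 and 57.06 CPM among controls and 95.25, 56.88, 49.26 and 44.6 CPM among knockouts. Knockout replicate 1 was again the highest library, and knockout replicates 3 and 4 were the lowest, so the knockout SD of 23.1 CPM exceeded the control SD of 5.74 CPM. The log2 fold change of Ebf2 was 0.08 (95% interval -0.38 to 0.54, edgeR adjusted p = 0.982) and turned to -0.20 without knockout replicate 1. Ebf1 had a run of 30 A in its annotated transcripts. In the sense direction it shared words of 31 bases with 1568 genes, no more than 52 of 9791 with a single gene. For Ebf1, 0 of the 8 deposited values were exactly whole.

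Zfp423 (chromosome 8, 87661810 to 87959595) encodes a zinc finger protein that commits precursors to the adipocyte fate and holds back the thermogenic programme of white fat. It measured 52.76, 67.37, 51.13 and 50.64 CPM among controls and 51.74, 41.15, 52.36 and 60.34 CPM among knockouts. Control replicate 2 stood above the other controls, and the groups overlapped. The log2 fold change was -0.11 (95% interval -0.43 to 0.21, edgeR adjusted p = 0.949). It was 0.00 to 2 decimals without control replicate 2, -0.02 without knockout replicate 2 and -0.20 without knockout replicate 4.

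Nr1h4 (chromosome 10, 89454234 to 89533585) encodes FXR, the bile acid receptor best known from liver and intestine. Replicates 1 to 4 held 5, 3, 3 and 6 estimated counts among controls and 0, 3, 4 and 10 among knockouts. These were at or near the detection floor, since 0 counts in knockout replicate 1 allow up to 3 counts, or 1.37 CPM. The means were 2.05 ± 1.22 and 1.51 ± 1.35 CPM (SD, n = 4, two-sided exact permutation p = 0.543), and the difference of -0.54 CPM became 0.06 CPM once control replicate 4 was left out. Among FXR target genes Nr0b2, Slc51a and Slc51b had 0 counts in all 8 libraries, which allows up to 0.984 to 1.92 CPM depending on the library, Abcb11 had 1 count in all, and Fgf15, which encodes an intestinal hormone, had 21 counts in all and at most 2.95 CPM. Fgf1 was the 1 of 6 targets tested, at 41.8 ± 9.07 and 41.4 ± 12.8 CPM (SD, n = 4), with a fitted log2 change of 0.00 (edgeR adjusted p = 0.999).

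**Figure D1:**
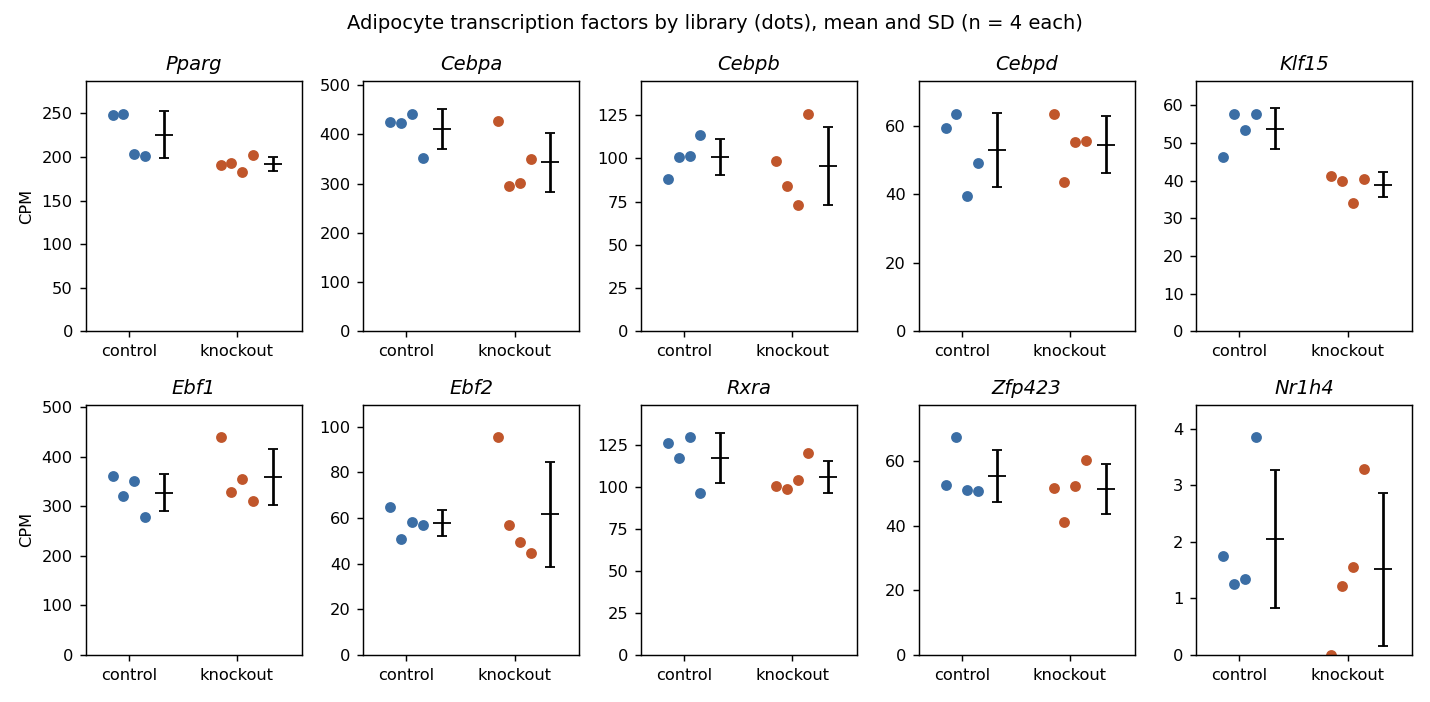
CPM of the 10 factors in 4 control (blue) and 4 knockout (orange) libraries, 1 panel per gene with its own axis from 0. Dots are libraries and the cross with bars is the mean with its SD; the Klf15 dots of the 2 genotypes do not overlap, and those of the other genes do.

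The plot of CPM by library shows the overlap of the genotypes for each factor but Klf15. Across the 9 tested factors the coefficient of variation within a genotype was 4.2% to 37.5%, with Pparg in the knockout libraries at the low end and Ebf2 in the knockout libraries at the high end. The median standard error of a log2 fold change was 0.136 for the 9 factors, against 0.211 over all tested genes. As a group they were thus measured more closely than the middle gene, though Ebf2, at 0.212, was not. The intervals reached no further than 0.59 and 1.46 times the control level for any of the 9. Of these intervals 8 included no change, Klf15 being the exception before adjustment.

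By direction, 6 of the 9 tested factors were lower and 3 were higher in the knockout mean, and their median log2 change was -0.11. Over all tested genes the median was -0.0015 and 50.3% were lower. The Ebf genes and Cebpd were the 3 on the higher side. The median of the 9 stayed below 0 in each fit that left out 1 library, at -0.22 to -0.02.

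In bulk tissue, fewer cells of a type and less RNA per cell cannot be told apart. The factors were therefore also set against 10 adipocyte marker genes (Adipoq, Plin1, Fabp4, Cidec, Cfd, Lipe, Pnpla2, Adrb3, Car3 and Lep). All 10 are also in the list of PPARγ and C/EBPα target genes read below. This scale is thus not independent of the factors and cannot stand for the number of adipocytes. The mean log2 CPM of these markers was 11.23 ± 0.218 for controls and 11.15 ± 0.199 for knockouts (SD, n = 4, two-sided exact permutation p = 0.657, or 0.816 when adjusted over the 8 measures of the libraries), and 0 of the 10 passed in edgeR, with 0 at an unadjusted p under 0.05. Scaled to them, the log2 fold change of Klf15 was -0.40 (edgeR adjusted p = 0.998), that of Pparg -0.15 and that of Cebpa -0.19. Relative to the markers the Klf15 libraries overlapped between the genotypes, at a log2 ratio of -5.47 ± 0.36 for controls and -5.84 ± 0.11 for knockouts (SD, n = 4). The genotypes were thus separate for Klf15 on the TMM scale and not on the marker scale. Its log2 fold change was -0.46 on the TMM scale and -0.40 on the marker scale. With a control SD of 0.36 for the ratio, the overlap does not show that the Klf15 difference was lost on scaling.

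**Figure D2:**
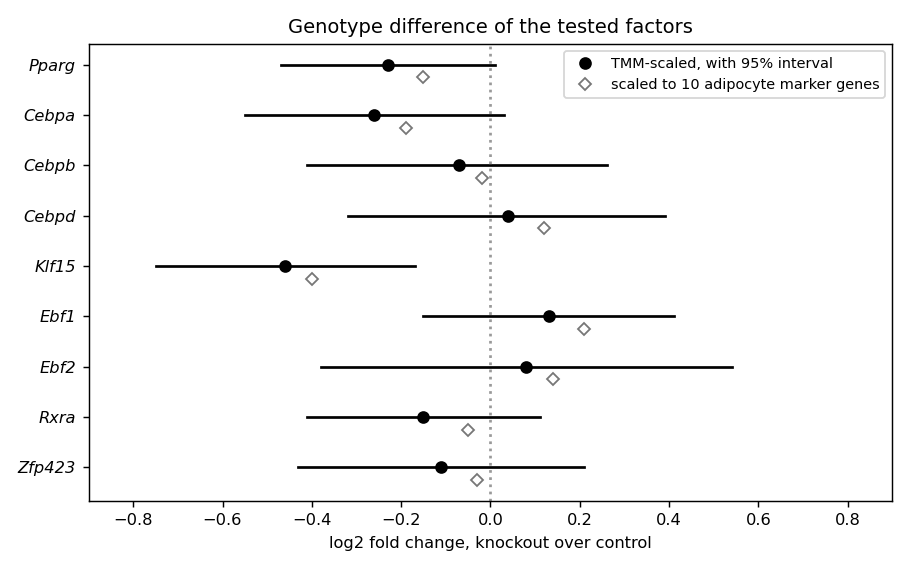
Log2 fold change, knockout over control, of the 9 tested factors. Black dots with lines are the TMM-scaled values with 95% intervals and open diamonds the values scaled to 10 adipocyte marker genes; the Klf15 line alone lies wholly below 0, at -0.75 to -0.17.

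In the plot of fold changes the diamonds lie to the right of the dots for each factor, which follows from scaling all genes to 1 set of markers.

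Other regulators of fat cell formation were read as lists. Factors that favour adipogenesis were tested for 20 of 20 genes: 0 passed in edgeR, 1 was higher and 1 lower at an unadjusted p under 0.05, against 3.52% and 2.87% of all genes, and the median log2 fold change was -0.01. The lower gene was Srebf1, which encodes the lipogenic factor SREBP-1. It measured 200.2, 201.7, 188.4 and 234.6 CPM among controls and 168.1, 132.7, 152.1 and 181.0 CPM among knockouts. The groups did not overlap, at a log2 fold change of -0.38 (95% interval -0.64 to -0.12, edgeR adjusted p = 0.507). The higher gene was Egr2, encoding KROX20, an early inducer of Cebpb, at 2.89 ± 1.01 against 5.49 ± 1.08 CPM (SD, n = 4), with a fitted log2 change of 0.95 (edgeR adjusted p = 0.756), from 82 counts in all.

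Factors that restrain adipogenesis had a median log2 change of 0.08: 14 of 20 tested genes were higher, where 50.3% of all tested genes were lower, and 0 were past the adjusted threshold in edgeR. At an unadjusted p under 0.05, 2 were higher and 1 was lower, against 3.52% and 2.87% of all genes. Gata2, whose product blocks precursors from becoming fat cells, measured 11.88, 10.04, 8.97 and 12.18 CPM among controls and 15.11, 18.96, 12.8 and 20 CPM among knockouts. Those groups did not overlap, as in 2.48% of tested genes on the higher side, and the log2 fold change was 0.64 (95% interval 0.11 to 1.17, edgeR adjusted p = 0.689). Klf3, which represses Cebpa, averaged 127.6 ± 19.7 and 155.8 ± 6.04 CPM (SD, n = 4), with a fitted log2 change of 0.29 (edgeR adjusted p = 0.713), and control replicate 2 lay among the knockouts. Id2, an inhibitor of helix-loop-helix factors, averaged 67.8 ± 8.25 and 47.1 ± 10.3 CPM (SD, n = 4), with a fitted log2 change of -0.52 (edgeR adjusted p = 0.482), with knockout replicate 3 inside the control range. Its place among the restraining factors was set by the list and was not tested here. The direction of its difference is therefore not read as less restraint.

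Family relatives of the factors were read next. Of 10 tested out of 12, 0 had an unadjusted edgeR p under 0.05 and the median log2 fold change was -0.08. The smallest p belonged to Klf9, a Krüppel-like factor that acts on Pparg, at 243.9 ± 33 and 219.2 ± 29.7 CPM (SD, n = 4; edgeR adjusted p = 0.922), and its log2 change of -0.15 was -0.07 without control replicate 4, -0.23 without knockout replicate 1 and -0.09 without knockout replicate 3. Coregulators of nuclear receptors, 19 tested of 20, likewise had 0 genes past either threshold in edgeR and a median of -0.03. Among them the smallest p was that of Ppargc1b, a coactivator of mitochondrial genes, at 20.5 ± 0.955 and 15.8 ± 5.39 CPM (SD, n = 4), with a fitted log2 change of -0.38 (edgeR adjusted p = 0.907) that was -0.62 without knockout replicate 2 and -0.22 without knockout replicate 4.

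Genes listed as adipocyte targets of PPARγ and C/EBPα were also read, among them all of the adipocyte marker genes used above for scaling. Whether these factors drive each listed gene in this tissue was not tested. Of 30 listed and tested, 24 were lower in the knockout mean and the median log2 fold change was -0.15, against -0.0015 over all genes. In edgeR 0 passed after adjustment, 6 were lower at an unadjusted p under 0.05, where 2.87% of all genes were, and 0 were higher. These 6 were Retn, Acaca, Pnpla3, Acsl1, Agpat2 and Gpd1, the last pair named after their values were seen. Of the 6, Acaca, Agpat2 and Gpd1 encode enzymes of fatty acid and glyceride synthesis, and Acsl1 activates fatty acids.

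Retn encodes resistin, a hormone of mouse adipocytes. It measured 2753, 2231, 2547 and 2037 CPM among controls and 1714, 1367, 1486 and 1547 CPM among knockouts. Every knockout library was below every control library. The log2 fold change was -0.65 with a standard error of 0.127 (95% interval -0.92 to -0.38, edgeR adjusted p = 0.0731). Retn passed without the low-count filter (edgeR adjusted p = 0.00157), in DESeq2 (adjusted p = 0.00013), in limma-voom (adjusted p = 0.0261) and without control replicate 4 (edgeR adjusted p = 0.0114); over all settings run its adjusted p lay between 0.00013 and 0.368.

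Acaca, encoding the acetyl-CoA carboxylase of fatty acid synthesis, averaged 257.1 ± 49.9 and 175.8 ± 34.9 CPM (SD, n = 4), with a fitted log2 change of -0.55 (edgeR adjusted p = 0.471). Pnpla3, a lipid droplet protein gene, averaged 98.1 ± 12.5 and 65.1 ± 20.7 CPM (SD, n = 4), with a fitted log2 change of -0.59 (edgeR adjusted p = 0.58). Acsl1, an acyl-CoA synthetase gene, averaged 578.6 ± 102 and 435.1 ± 96.5 CPM (SD, n = 4), with a fitted log2 change of -0.41 (edgeR adjusted p = 0.701). In all 3 genes the genotypes overlapped by at least 1 library, in contrast to Retn.

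**Figure D3:**
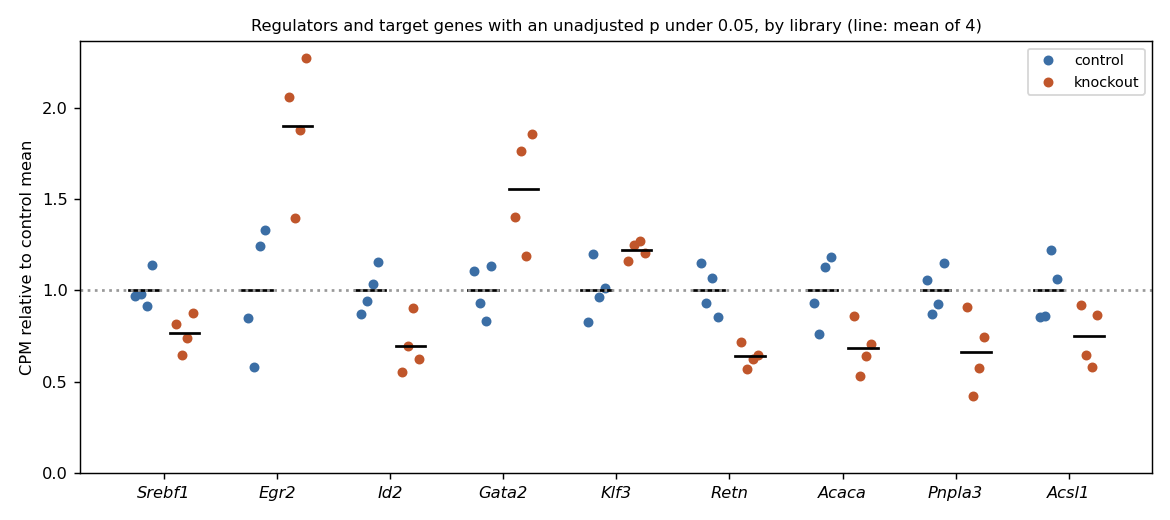
CPM of 9 regulators and target genes relative to each gene's control mean, in 4 control (blue) and 4 knockout (orange) libraries, with a line at each mean. Srebf1, Egr2, Gata2 and Retn show no overlap between the genotypes; none of the 9 passed the adjusted threshold in edgeR.

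The plot of regulators and targets shows the Retn knockout libraries close together below the controls, whereas knockout replicate 1 of Pnpla3, at 89.29 CPM, lay above control replicate 2, at 85.36 CPM.

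**Figure D4:**
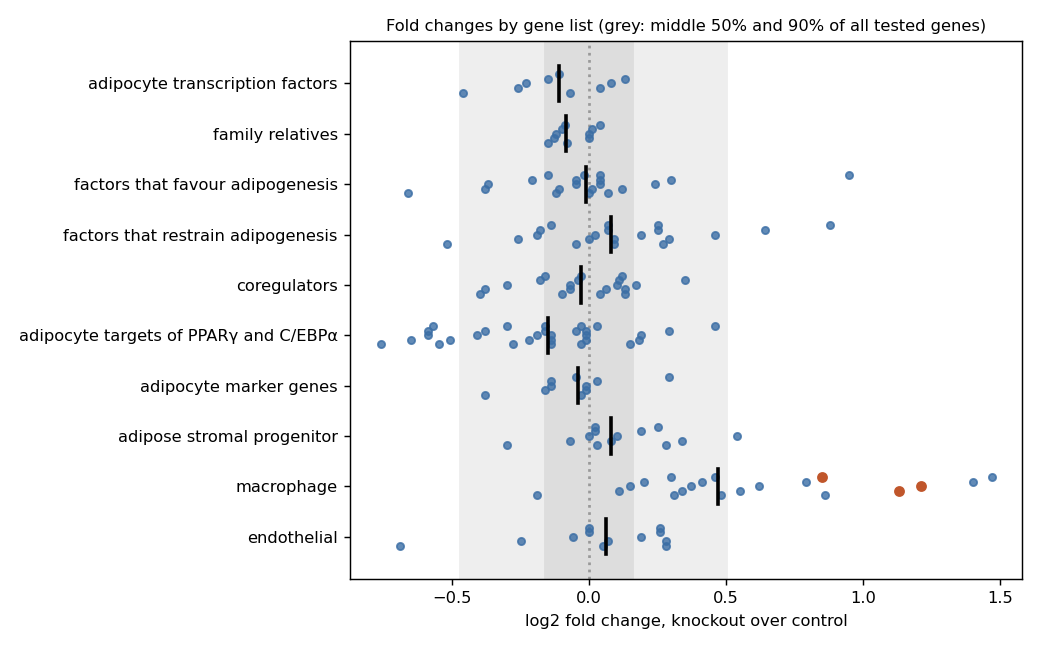
Log2 fold changes, knockout over control, of the tested genes in 10 lists. Dots are genes, orange where the edgeR adjusted p was under 0.05, black bars are medians, and grey bands hold the middle 50% and 90% of all tested genes; the adipocyte transcription factors centre on -0.11 and the macrophage list on 0.47.

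Markers of other cell types were set beside these values because several of the factors are not confined to fat cells: Cebpa, Cebpb, Rxra and Pparg also act in macrophages. Of 20 macrophage markers 19 were higher in the knockout mean and 3 passed in edgeR, Ctss, Lyz2 and Cd68, where 0.12% of all genes passed upward. They encode a lysosomal protease, lysozyme and a lysosomal glycoprotein, at log2 fold changes of 1.21, 0.85 and 1.13 (edgeR adjusted p = 0.000666, 0.00776 and 0.0156). Cd68 did not pass without control replicate 2 or 3 or knockout replicate 1 or 2 (edgeR adjusted p = 0.0621 to 0.1), nor Lyz2 without control replicate 2 (edgeR adjusted p = 0.0551). With the replicate number as a block their adjusted p-values were 0.0962 and 0.0813. Trem2, a receptor of lipid-laden macrophages, reached 1.40 (edgeR adjusted p = 0.0657). Trem2 passed without the low-count filter (edgeR adjusted p = 0.00365) and in DESeq2 (adjusted p = 0.00575). Its adjusted p lay between 0.00365 and 0.278 over the settings run. The summed level of the list was 1164 to 1369 CPM for controls and 1778 to 2221 CPM for knockouts, without overlap. The part of these cells in the values of the factors was not tested. Genes of the mitochondrial genome also took separate shares of the counts, at 11.3% ± 0.814 for controls and 9.32% ± 0.589 for knockouts (SD, n = 4, two-sided exact permutation p = 0.0286, or 0.0763 when adjusted over the 8 measures of the libraries). Without those genes, and with TMM factors taken anew, each factor's log2 fold change was the same to 2 decimals. TMM scaling changes little when a few genes are removed, so that fit cannot show what part the mitochondrial share has in the factors. The number of genes with a count above 0 was separate too, at 17176 to 17937 for controls and 17968 to 18247 for knockouts (two-sided exact permutation p = 0.0286, or 0.0763 when adjusted over the 8 measures of the libraries), and its part in the values of the factors was not tested.

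Precursor markers, 13 tested of 14, had a median of 0.08 and a summed level of 3309 to 3834 CPM for controls and 3402 to 4315 CPM for knockouts; their smallest p was that of the matrix gene Fn1 (log2 fold change 0.54, or 0.26 without knockout replicate 4, edgeR adjusted p = 0.727). The endothelial sum was 698.8 to 1280 CPM and 996.9 to 1220 CPM, the lowest value being control replicate 4, and Vwf, a clotting protein gene, had the smallest p (log2 fold change -0.69, edgeR adjusted p = 0.733). The mesothelial sum was 129.6 to 391.7 CPM and 149.3 to 248.6 CPM, with Gpm6a at a log2 fold change of 0.39 (edgeR adjusted p = 0.922), which was 0.62 without control replicate 2, 0.20 without control replicate 3 and 0.09 without knockout replicate 4. The lymphocyte sum was 20.9 to 29.6 CPM and 16.3 to 42.4 CPM, with 1 of 12 markers tested, the T cell gene Cd3d (log2 fold change -0.49, edgeR adjusted p = 0.924). Epididymis markers were near 0, at sums of 1.79 to 4.19 CPM and 3.23 to 12.8 CPM, and Lcn5, Lcn8 and Crisp1 had 0 counts in all libraries. Cfd, which encodes adipsin, had the smallest p of the adipocyte markers (log2 fold change -0.38, edgeR adjusted p = 0.925), at -0.19 without control replicate 1, -0.69 without knockout replicate 1 and -0.18 without knockout replicate 4.

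**Figure D5:**
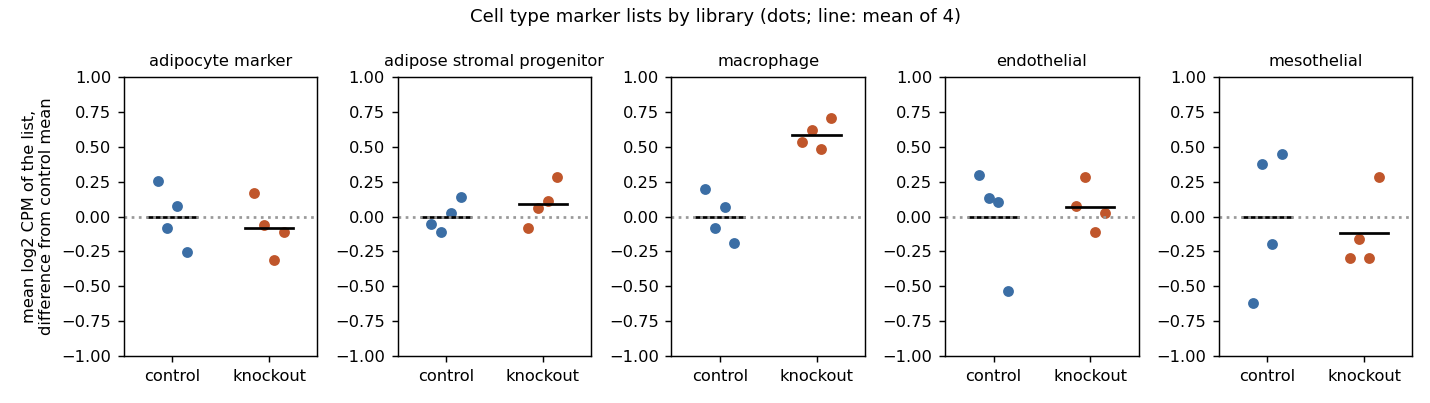
Mean log2 CPM of 5 cell type marker lists in each library, as the difference from the control mean, with a line at the mean of 4 libraries. Macrophage markers lie higher in all 4 knockout libraries, adipocyte markers overlap, and control replicate 4 is the lowest endothelial value.

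The genes whose log2 CPM followed a factor most closely over the 8 libraries were found among all tested genes, as a description only. With Pparg they were Sdhaf3 (Pearson r = 0.963, Spearman rho = 0.76), Tmem263 (0.954, rho = 0.69) and Hspa14 (0.91, rho = 0.52). With Cebpa they were Gpat3, a glycerol-phosphate acyltransferase gene (r = 0.968, rho = 0.74), Ndufa10 (r = 0.967, rho = 0.98) and Emc8 (r = 0.956, rho = 0.79). With Klf15 they were Pcyt2, a phosphatidylethanolamine synthesis gene (r = 0.985, rho = 0.98), Bend3 (r = 0.939, rho = 0.90) and Mrpl40 (r = 0.93, rho = 0.98). The genotype means were left in, so a shared difference between genotypes adds to these values. The 3 genes named with Klf15 were lower in knockouts too, at log2 fold changes of -0.36, -0.96 and -0.38. All points share the same 8 libraries, and with 12480 genes to choose from high values arise readily.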

How the data were processed

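BRB-seq, which reads transcript 3′ ends after oligo-dT priming and Tn5 tagmentation, was run on the extracted RNA with 51-base reads, per the labels' protocols. The submitters' processing notes name Salmon and GRCm38; the annotation and use of molecular identifiers are not given in the sources used here. The authors deposited estimated counts per gene without normalization, and 59.6% of values above 0 were exactly whole (no tolerance). They were rounded and tested with edgeR 4.0.16 (robust quasi-likelihood F test, genotype as the only term, TMM factors, filterByExpr), p-values adjusted by Benjamini-Hochberg. Alternatives used DESeq2 1.42.0 and limma 3.58.1 in R 4.3.3, and limma-voom was run with quality weights for the libraries throughout. Exact permutation tests were two-sided (scipy 1.17.1). Intervals are 95% and, like the floor of 3 counts, leave out amplification error. Gene names came from a list of symbols that held 34582 of the identifiers, and otherwise from GENCODE M21. Coordinates came from GENCODE M21 (GRCm38), which held 34652 of the 34866 identifiers deposited. Tests were tried first on simulated counts. Replicates of a genotype differed by more than sampling noise (chi-square per degree of freedom 4.48 to 9.4 over pairs); nothing says that they are separate animals, so p-values measure the spread between samples.

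Named were all 10 factors, Cyp19a1, in each list the genes past the adjusted threshold and up to 4 with the smallest unadjusted p under 0.05, or else the gene with the smallest p, and the 3 genes most like Pparg, Cebpa and Klf15. The factors and lists were chosen with earlier results of these data known. Planned protein comparisons were not made, and no protein sequence was used here.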

Additional observations from a re-analysis of the deposited data

Results flagged for a closer look

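In groups of 4 libraries, a library was looked at again where its gap to the nearest other, as a share of the range of the group, exceeded Dixon's critical value. This occurred in 2 of 80 groups, and chance alone would give 4.0. For Zfp423, control replicate 2 measured 67.37 CPM while the remaining controls lay between 50.64 and 52.76 CPM. For Cyp19a1, control replicate 3 measured 2.243 CPM while the remaining controls lay between 0.418 and 0.699 CPM, a difference of a few reads.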

How the results depend on the processing

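No factor passed the adjusted threshold under any of the 17 settings run, and Pparg (-0.28 to -0.15), Cebpa (-0.38 to -0.19), Klf15 (-0.53 to -0.40) and Rxra (-0.23 to -0.05) were below 0 in all of them. Ebf1 (0.02 to 0.21) and Zfp423 (-0.20 to 0.00) did not change sign but came near 0 when 1 library was left out. Signs turned when 1 library was left out for Cebpb (range -0.24 to 0.03), Cebpd (-0.08 to 0.14), Ebf2 (-0.20 to 0.21), Nr1h4 (-1.13 to 0.06 CPM) and Cyp19a1 (-0.52 to 0.18 CPM; 0.01 without knockout replicate 1). The number of factors with an unadjusted p under 0.05, 1 in the main test, was 2 with upper-quartile factors, 3 with limma-voom, 0 when scaled to adipocyte markers and 1 to 3 when 1 library was left out (2 without control replicate 3, 3 without control replicate 4, 2 without knockout replicate 1). The number of genes past the threshold was 58 without the low-count filter, 54 with DESeq2 and 4 to 43 when 1 library was left out. With the replicate number as a block it was 6, 5 of these were also called without it, and no factor passed. Same-numbered libraries had deviations correlated at 0.25, -0.06, -0.01 and -0.24, which cannot decide whether the number pairs samples. List medians turned sign for coregulators without the filter (0.01) and when 1 library was left out (-0.02 to 0.06), and likewise for adipocyte (-0.18 to 0.03), endothelial (-0.07 to 0.17) and mesothelial (-0.32 to 0.09) markers. Fewer samples are the construction of the leave-one-out fits; elsewhere the cause was not tested. Nr1h4, at 0 to 10 counts a library, is limited by depth.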

Other observations

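The factors varied together only in part. Within genotypes, after each group's mean was taken out, 25 of 36 pairs among the 9 tested factors had a Pearson correlation above 0 over the 8 libraries, with a median of 0.18 and a range of -0.38 to 0.78. The highest values were those of Ebf1 with Ebf2 (r = 0.78, Spearman rho = 0.67) and Ebf1 with Cebpa (r = 0.78, rho = 0.86). Pparg with Cebpa, the pair that maintain each other in the adipocyte, stood at 0.28 (rho = 0.24). The points share their libraries and library sizes, and the values are given as a description.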
